A study of Mus musculus with 5 samples.

Results

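The nuclear genes for the proteins of the mitochondrial ribosome were examined in tunicamycin-treated cultures, labelled as astrocytes, that carry the G2019S or the wild-type form of LRRK2. A gene was included if a probe set of the deposited array table was annotated to it alone and its symbol was Mrpl or Mrps followed by a number, and a gene with several such probe sets was represented by the one of highest average signal. This gave 71 of the 22059 genes with a tested probe set, 43 with an Mrpl symbol and 28 with an Mrps symbol. The annotation lists 78 such genes. The remaining 7, Mrpl30, Mrpl33, Mrpl41, Mrpl43, Mrpl44, Mrpl53 and Mrps6, had only probe sets shared with a second symbol and were not tested. Those shared probe sets differed between genotypes by -0.10 to 0.23 (log2), the highest being that of Mrpl43 and Twnk.

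LRRK2 is a kinase whose mutations can cause Parkinson's disease, and tunicamycin stresses the endoplasmic reticulum because it stops the N-glycosylation of new proteins. There were 3 arrays of LRRK2-GS cells and 2 of LRRK2-WT cells, from cortical cultures that the methods describe as prepared from newborn (1-d-old) FVB pups. LRRK2-GS cells came from heterozygous mice with a G2019S-LRRK2 transgene, and LRRK2-WT cells came from heterozygous mice with a wild-type LRRK2 transgene, so both genotypes carry a transgene above the mouse's own gene. All cultures were kept without serum for 2 d to remove microglia and meningeal cells and all received tunicamycin, at 0.2 μg/ml for 3 h by the sample labels, while the study's text gives a longer treatment. No untreated array was analysed, so every value compares genotypes under stress. Nothing states that the arrays of a genotype came from separate cultures, and p-values then measure only the spread between these arrays.

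Mitochondrial ribosomes translate the few mRNAs of the mitochondrial genome, whose products are subunits of the respiratory chain and the ATP synthase. Their proteins are encoded in the nucleus, made in the cytosol and imported, and they assemble on mitochondrial rRNA into a large (39S) and a small (28S) subunit. Some have bacterial counterparts and others exist only in mitochondria. The symbols do not follow the subunits in every case, since Mrps18a and Mrps30 lie in the large subunit and Mrps36 is now known as a part of the 2-oxoglutarate dehydrogenase complex.

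No mitochondrial ribosomal protein mRNA passed the test for a difference between LRRK2-GS and LRRK2-WT cells. With both an adjusted p up to 0.05 and a change beyond 1.5-fold required, limma called 0 of 71 genes and 0% of the 23396 tested probe sets. At an unadjusted p under 0.05 there were 0 of 71 genes, beside 2.09% of all tested probe sets. No gene exceeded 1.5-fold in either direction, which 0.957% of all tested probe sets did. The lowest adjusted p was 0.826 among these genes and 0.207 over the whole table.

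The differences were small, and all are given as log2 values with LRRK2-WT subtracted from LRRK2-GS. They ran between -0.32 for Mrpl49 and 0.38 for Mrps18b, their median was 0.02 and the middle of the list lay between -0.05 and 0.06 (quartiles). The size of the difference was at most 0.1 in 53 genes and at most 0.2 in 68 genes. The mean was higher in LRRK2-GS in 40 genes, lower in 25 and equal in 6, which is 56.3% higher and 35.2% lower, beside 48.8% and 42.7% of all tested probe sets with a median of 0.00. The 95% confidence interval held 0 in all 71 genes, and in 65 of them it lay wholly within 1.5-fold. The 6 equal genes had the same value on all 5 arrays, so their interval of -0.03 to 0.03 does not come from a measured spread. Values that recur exactly between arrays, described below, narrow an interval too.

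**Figure D1:**
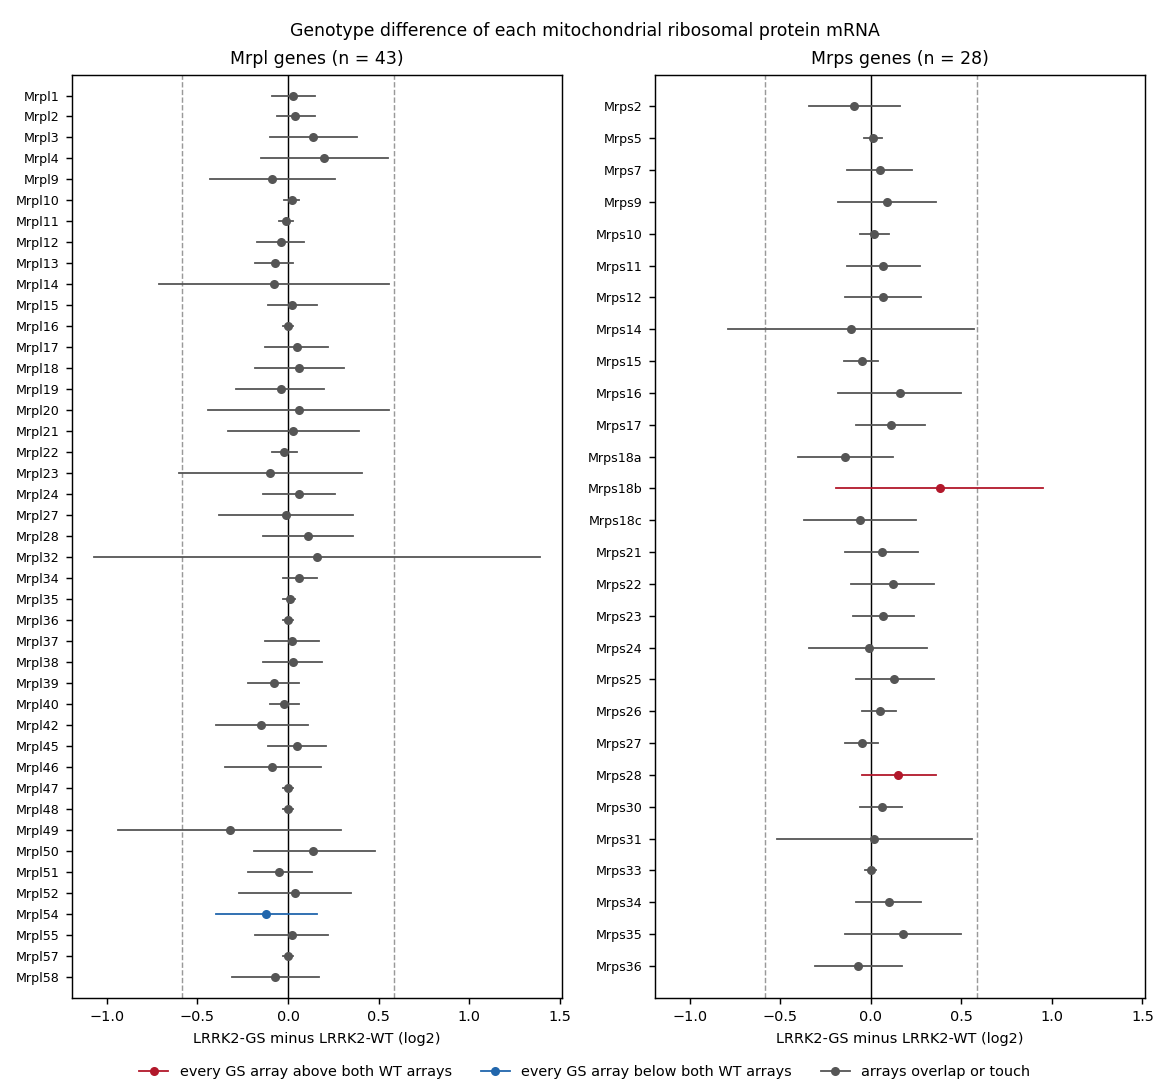
Difference of each gene between LRRK2-GS (n = 3 arrays) and LRRK2-WT (n = 2 arrays) on the log2 scale, with the limma 95% confidence interval as a bar and 1.5-fold as dashed lines, for the 43 Mrpl genes on the left and the 28 Mrps genes on the right. Every interval crosses 0 and no point lies beyond a dashed line, and the coloured genes are the 3 whose genotypes do not overlap.

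The arrays themselves set limits on these values. Array medians over all probe sets were 3.26 to 3.28. The background level was set at 3.35, under which 95% of the 1090 probe sets of olfactory receptors lay. The 12 hepatocyte markers lay above it on every array, with a mean level of 11.18 to 11.37 in LRRK2-GS arrays and 11.34 to 11.39 in LRRK2-WT arrays, and albumin (Alb) averaged 12.61 in LRRK2-GS and 12.66 in LRRK2-WT. Of the 12 astrocyte markers 8 lay above it on every array, with a mean level over the list of 4.10 to 4.30 in LRRK2-GS arrays and 4.29 to 4.33 in LRRK2-WT arrays, and 4 had a mean at or under background, namely Aqp4, S100b, Slc1a3 and Gjb6 (Aqp4 at 2.76 in LRRK2-GS and 2.75 in LRRK2-WT). Gfap, which averaged 4.16 in LRRK2-GS and 4.05 in LRRK2-WT, and Aldh1l1, at 7.71 in LRRK2-GS and 7.88 in LRRK2-WT, were among the 8 above it. On every array the hepatocyte markers had a far higher mean level than the astrocyte markers, which the astrocyte label does not account for. Whether the arrays hold RNA of the labelled cells was not tested, nor was the part of other cell types in the differences below. Xist, the RNA of the inactive X chromosome, averaged 2.57 in LRRK2-GS and 8.29 in LRRK2-WT arrays, and the Y-linked Eif2s3y averaged 6.41 in LRRK2-GS and 2.17 in LRRK2-WT arrays, so sex and genotype cannot be told apart. In bulk RNA, fewer cells of a type and less RNA per cell cannot be told apart either.

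Of the 71 mitochondrial ribosomal protein probe sets, 68 lay above background on all arrays. Mrpl27 did so on 3 arrays, and Mrps14 and Mrps36 on 0. Many deposited values recur exactly between arrays. A value stood on at least 2 arrays in 57 genes (80.3%, beside 77.8% of all tested probe sets), and the same value stood on all 5 arrays in 6 genes (8.45%, beside 8.5%), namely Mrpl16, Mrpl36, Mrpl47, Mrpl48, Mrpl57 and Mrps33. For Mrpl36, Mrpl47, Mrpl48 and Mrps33 the same 5 values also stood at other probe sets of the table, as they did for 9.8% of all probe sets. In 16 genes 4 arrays were equal and a single array stood apart. That array was of LRRK2-GS in 13 genes and of LRRK2-WT in 3 genes, Mrps22, Mrps26 and Mrps30. In 51 genes an LRRK2-GS array and an LRRK2-WT array had the same value, so that the genotypes could not separate.

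Promoter sequences are shown because genes of this kind are described as targets of the transcription factors NRF1, GABP (of the ETS family) and YY1, and because they show what the genes share apart from their mRNA levels. RefSeq promoter windows of GRCm38.p6, 250 bases before to 50 bases after the start, were found for 62 of the 71 genes. On either strand, the NRF1 core GCGCATGC stood in 7 windows (11.3%), the ETS core CCGGAAGT in 10 (16.1%) and the YY1 core AAGATGGC in 12 (19.4%). The shares among all 27025 windows were 3.05%, 4.31% and 3.19% for the same cores, and among the 17491 protein-coding genes they were 3.93%, 5.69% and 3.57%. At least 1 core stood in 27 windows (43.5%), beside 9.91% of all genes and 12.3% of protein-coding genes, and 2 windows held more than 1 kind. A match of letters is not a bound site.

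Matches of the NRF1 core on the 2 strands can overlap and were counted apart. Mrpl32, whose protein is cut by the m-AAA protease before it joins the ribosome, held 4 of them in the 100 bases before its start, at chr13:14613038-14613137 on the minus strand, and the NRF1 letters are in capitals.
Mrpl32: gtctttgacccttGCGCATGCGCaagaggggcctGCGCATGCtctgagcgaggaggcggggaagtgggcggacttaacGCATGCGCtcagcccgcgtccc
The 30 bases around the matches of Mrps18b, whose chosen probe set had the highest difference, are at chr17:35916394-35916423 and chr17:35916645-35916674 on the minus strand, with the NRF1 letters in capitals. The first match starts 29 bases after the start site and the second starts at -223.
Mrps18b after the start: gcgtgtcccgaGCATGCGCagtcgctcttc
Mrps18b before the start: aacggcccgacGCATGCGCactgggagcac

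The ETS and YY1 matches lay close to the start in most of the windows. Of the 10 ETS matches 8 and of the 12 YY1 matches 9 began within 100 bases of it. The YY1 letters contain an ATG, and in 8 of the 12 genes they lay 12 to 37 bases after the start, in the sense direction. The windows shown next belong to genes whose arrays are described singly, with the ETS letters (Mrpl3) or the YY1 letters (the others) in capitals. They lie at chr9:105053238-105053267 (plus strand) for Mrpl3, chr13:14613258-14613287 (minus strand) for Mrpl32, chr10:95501904-95501933 (minus strand) for Mrpl42, chr19:6057721-6057750 (minus strand) for Mrpl49 and chr17:46111004-46111033 (plus strand) for Mrps18a.
Mrpl3: tgagaaacggaCCGGAAGTggcccggctgt
Mrpl32: cgcgctctGCCATCTTtacccggaaagtcg
Mrpl42: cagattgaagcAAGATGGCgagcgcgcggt
Mrpl49: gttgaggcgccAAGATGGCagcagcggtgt
Mrps18a: aggtgcgttccAAGATGGCggccctcaggg

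The mRNA differences had like medians in these promoter classes. The median difference was 0.02 over the 7 genes with an NRF1 core, 0.02 over the 10 with an ETS core, 0.01 over the 12 with a YY1 core and 0.02 over the 35 with none of them. The differences of the YY1 genes ran from -0.32 to 0.16 and those of the NRF1 genes from -0.09 to 0.38. The respiratory chain genes held the NRF1 core in 15.6%, the ETS core in 7.81% and the YY1 core in 14.1% of 64 windows. The cytosolic ribosomal proteins held them in 6.12%, 22.4% and 4.08% of 49 windows. At least 1 core stood in 35.9% of the respiratory chain windows and 32.7% of the cytosolic ribosomal protein windows, and these shares were not tested against the 43.5% of the mitochondrial ribosomal proteins.

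**Figure D2:**
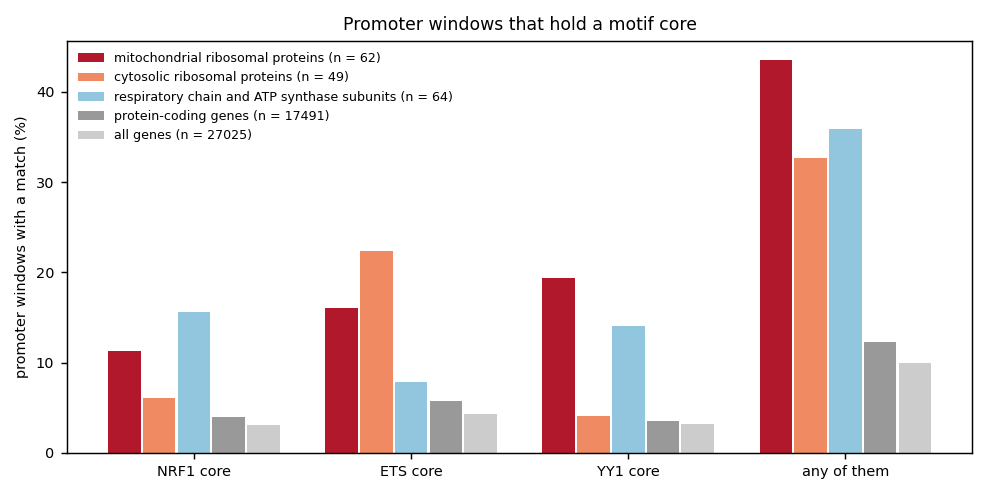
Share of promoter windows (percent) that hold the NRF1, ETS or YY1 core or any of them, for 62 mitochondrial ribosomal protein genes, 49 cytosolic ribosomal protein genes, 64 respiratory chain and ATP synthase genes, 17491 protein-coding genes and all 27025 genes. The mitochondrial ribosomal proteins reach 43.5% for any core, against 35.9% of respiratory chain genes, 32.7% of cytosolic ribosomal proteins, 12.3% of protein-coding genes and 9.91% of all genes.

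Grouped by symbol, the Mrpl genes lay on both sides of 0. The 43 Mrpl genes had a median difference of 0.00, with 21 higher and 17 lower in LRRK2-GS and 5 equal, and 0 passed an unadjusted p of 0.05. In Mrpl4, which lines the exit tunnel of the nascent chain, the values were 5.23, 5.05 and 5.05 in LRRK2-GS and 4.77 and 5.05 in LRRK2-WT, a difference of 0.20 (95% CI -0.15 to 0.55, limma adjusted p = 0.826). A single LRRK2-WT array was low, and the genotypes met at 5.05. The other measured proteins of the tunnel and its exit, Mrpl22, Mrpl23, Mrpl24 and Mrpl45, differed by -0.02, -0.10, 0.06 and 0.05.

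Mrpl3, which reaches toward the catalytic centre, read 5.86, 5.78 and 5.92 in LRRK2-GS and 5.81 and 5.61 in LRRK2-WT (difference 0.14, 95% CI -0.10 to 0.38). The LRRK2-GS arrays fell on both sides of the higher LRRK2-WT array. The proteins of the stalk that recruits translation factors varied little, and Mrpl10, Mrpl11 and Mrpl12 differed by 0.02, -0.01 and -0.04. The wider of the ranges within the genotypes had a median of 0.03 over these 3 genes, beside 0.17 over all 71.

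Mrpl49, a mitochondrion-specific protein, had the lowest difference of the 71. It read 4.15, 4.60 and 4.61 in LRRK2-GS and 4.61 and 4.94 in LRRK2-WT, which is -0.32 (95% CI -0.94 to 0.29, adjusted p = 0.826), or 1.25-fold. The first LRRK2-GS array was low and the second LRRK2-WT array was high, while the remaining 3 arrays lay together. Mrpl42, also specific to mitochondria, showed a like arrangement with 5.35, 5.43 and 5.43 in LRRK2-GS and 5.43 and 5.67 in LRRK2-WT (difference -0.15). Both have the YY1 letters shown above.

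Mrpl54, another mitochondrion-specific protein, was the only gene of the 71 with all 3 LRRK2-GS values under both LRRK2-WT values, an arrangement found in 3.74% of all tested probe sets. It read 6.29, 6.04 and 6.29 in LRRK2-GS and 6.32 and 6.33 in LRRK2-WT, a difference of -0.12 (95% CI -0.40 to 0.16, adjusted p = 0.826). Of the 3 LRRK2-GS arrays, 2 lay just under the LRRK2-WT values and the second lay further off.

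Mrpl50 read 7.34, 7.43 and 7.16 in LRRK2-GS and 7.27 and 7.06 in LRRK2-WT (difference 0.14), with the groups interleaved. Mrpl46 read 4.01, 4.24 and 4.24 in LRRK2-GS and 4.24 and 4.27 in LRRK2-WT (difference -0.09), and the genotypes met at 4.24. Mrpl23, at the tunnel exit, read 5.50, 5.07 and 5.39 in LRRK2-GS and 5.54 and 5.29 in LRRK2-WT (difference -0.10). In each of these the range within a genotype was wider than the difference.

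The widest spread belonged to Mrpl32, whose upstream sequence is given above. It read 3.41, 4.46 and 4.05 in LRRK2-GS and 3.49 and 4.13 in LRRK2-WT, so that each genotype had a low array and a higher one. The range was 1.05 within LRRK2-GS and 0.64 within LRRK2-WT, and the difference of 0.16 had a 95% CI of -1.07 to 1.39. Mrpl14, a protein of the face between the subunits, read 5.10, 4.68 and 5.30 in LRRK2-GS and 5.10 and 5.10 in LRRK2-WT (difference -0.08). Its LRRK2-GS arrays lay on both sides of a constant LRRK2-WT value.

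The 28 Mrps genes had a median difference of 0.05, with 19 higher and 8 lower in LRRK2-GS and 1 equal. None passed an unadjusted p of 0.05, and the list was not tested against the Mrpl genes. The first LRRK2-WT array moves with this count. It was the only lowest array in 11 of the 28 Mrps genes (39.3%) and the only highest in 0, and it was the only lowest in 20 of all 71 genes (28.2%), beside 15.1% of all tested probe sets. Its Mrps values averaged -0.07 against each gene's mean over arrays, whereas the other 4 arrays averaged 0.00 to 0.04. Without it, the median of the Mrps genes was 0.01. Without the third LRRK2-GS array instead the median was 0.02, and without any of the other arrays it was 0.05 to 0.07.

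**Figure D3:**
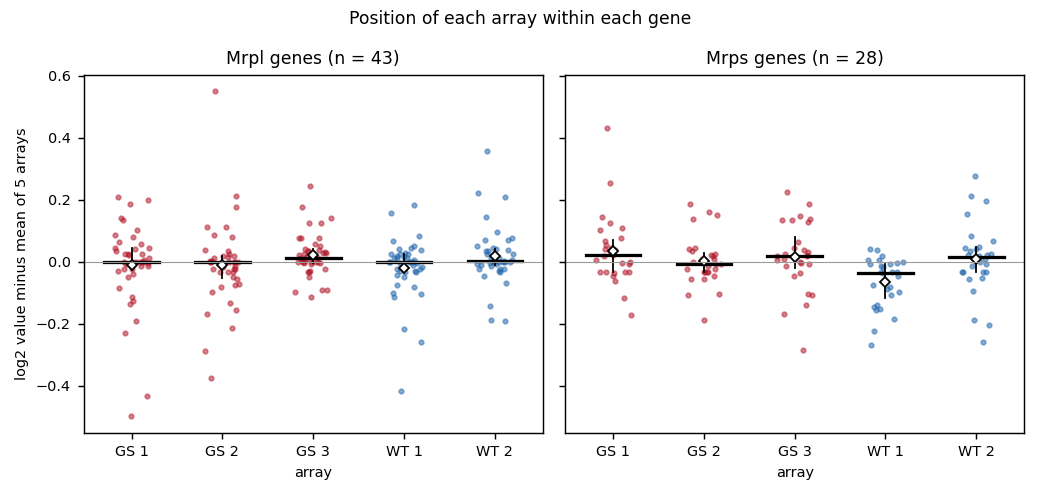
Log2 value of each gene minus its mean over the 5 arrays, by array, for the 43 Mrpl genes and the 28 Mrps genes, with thick lines at the median, thin lines over the quartiles and diamonds at the mean. The first LRRK2-WT array sits lowest among the Mrps genes, with a mean of -0.07, and the Mrpl means lie between -0.02 and 0.02.

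In 2 genes, Mrps18b and Mrps28, all LRRK2-GS values exceeded both LRRK2-WT values, an arrangement found in 3.76% of all tested probe sets. Mrps28, the counterpart of bacterial protein S1, read 5.48, 5.39 and 5.55 in LRRK2-GS and 5.26 and 5.38 in LRRK2-WT. The lowest LRRK2-GS array was within 0.01 of the higher LRRK2-WT array. The difference was 0.15 (95% CI -0.05 to 0.36, limma adjusted p = 0.826).

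Mrps18b, which belongs to the small subunit and has relatives in Mrps18a and Mrps18c, read 7.63, 7.36 and 7.06 in LRRK2-GS and 6.93 and 7.01 in LRRK2-WT. The third LRRK2-GS array lay close to the LRRK2-WT arrays and the first lay furthest. The difference was 0.38 (95% CI -0.19 to 0.95, adjusted p = 0.826), or 1.3-fold. The 20 tested probe sets numbered nearest to this probe set all belong to chromosome 2, whereas Mrps18b lies on chromosome 17. Its other probe set, whose 20 nearest neighbours are all on chromosome 17, read 5.99, 6.0 and 5.58 in LRRK2-GS and 5.75 and 5.86 in LRRK2-WT. There the groups overlapped and the difference was 0.05, and with the mean of both probe sets it was 0.21. For 68 of the 71 genes the nearest probe sets lay mostly on the gene's own chromosome, and the other exceptions were Mrps18c and Mrpl21. Of the 8 other genes with a second probe set, Mrps16 had the largest second difference, 0.27 beside the 0.16 of its chosen probe set, and Mrps17 had 0.00 beside 0.11.

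The relatives of Mrps18b lay on the other side of 0, also without passing the test. Mrps18a, a large-subunit protein despite its symbol, read 4.81, 4.74 and 4.81 in LRRK2-GS and 4.81 and 5.06 in LRRK2-WT (difference -0.14), with a single high LRRK2-WT array, without which it was -0.02. Mrps18c, the counterpart of bacterial S18, differed by -0.06.

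Mrps35, a mitochondrion-specific protein, read 5.10, 5.20 and 5.10 in LRRK2-GS and 5.10 and 4.80 in LRRK2-WT (difference 0.18, 95% CI -0.14 to 0.50). Mrps16, a bacterial-type protein in which human mutations cause respiratory chain deficiency, read 5.69, 5.65 and 5.91 in LRRK2-GS and 5.69 and 5.48 in LRRK2-WT (difference 0.16, 95% CI -0.18 to 0.50). In both, a single LRRK2-WT array was low and the other lay among the LRRK2-GS values.

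Mrps2, the counterpart of bacterial S2, read 4.69, 4.77 and 4.63 in LRRK2-GS and 4.69 and 4.89 in LRRK2-WT (difference -0.09). Mrps14 was under background on every array, at 3.00, 2.64 and 2.46 in LRRK2-GS and 2.60 and 3.02 in LRRK2-WT (difference -0.11). The groups overlapped in both genes.

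**Figure D4:**
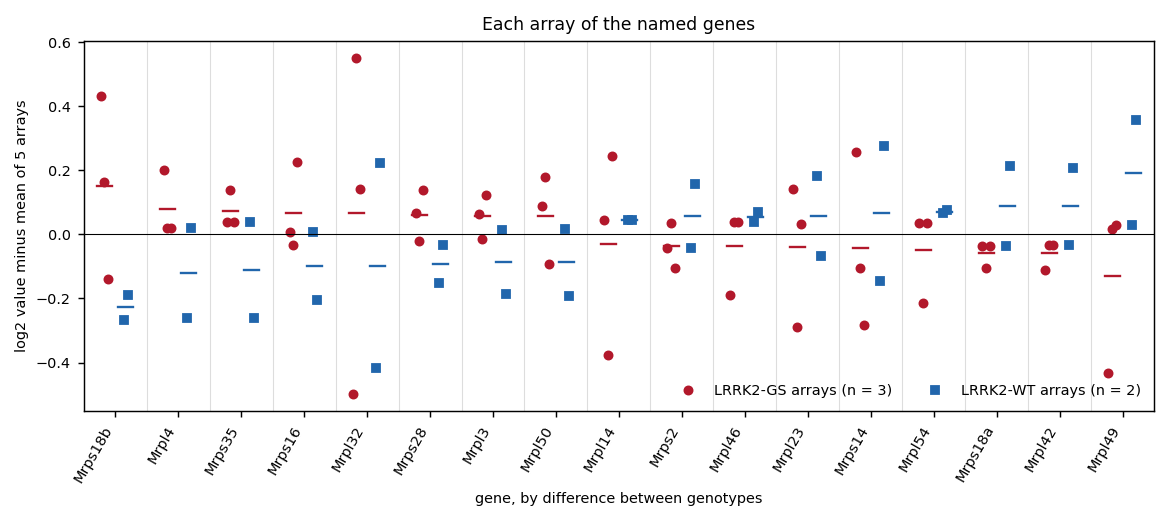
Log2 value of each array minus the mean of the 5 arrays for 17 genes, with LRRK2-GS arrays as circles, LRRK2-WT arrays as squares and a short line at each genotype's mean. Only in Mrps18b, Mrps28 and Mrpl54 do the genotypes not overlap, and Mrpl32 has the widest spread within a genotype.

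The genes were also set apart by whether the standard ribosomal protein names give their protein a bacterial counterpart. Under this rule Mrps18a and Mrps18b, though relatives of Mrps18c, count as mitochondrion-specific. The 43 bacterial-type genes had a median difference of 0.02, with 26 higher, 14 lower and 3 equal. The 28 mitochondrion-specific genes had a median of 0.01, with 14 higher, 11 lower and 3 equal. By symbol, the mitochondrion-specific genes split into 15 Mrpl genes with a median of -0.02 (5 higher, 8 lower) and 13 Mrps genes with a median of 0.06 (9 higher, 3 lower). In 65 of the 71 genes the difference between genotypes was smaller than the wider of the ranges within the genotypes. The other 6 read the same on all 5 arrays, with neither a difference nor a range.

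The machinery around the mitochondrial ribosome was described in the same way. Of the mitoribosomal proteins under other symbols, 3 were measured, Dap3, Gadd45gip1 and Ptcd3, with differences of -0.03, -0.03 and -0.04. Of 13 translation factors 7 were higher and 5 lower (median 0.01), and 1 passed an unadjusted p of 0.05. This was Mrrf, the factor that recycles ribosomes after termination, at 6.33, 6.19 and 6.22 in LRRK2-GS and 6.57 and 6.48 in LRRK2-WT. Its LRRK2-GS arrays did not overlap the higher LRRK2-WT arrays, with a difference of -0.28 (95% CI -0.45 to -0.11, limma adjusted p = 0.826). Tufm, the elongation factor that brings in aminoacyl-tRNA, differed by 0.09, Mtif3, an initiation factor, by -0.21 and Mtrf1, of the release factor family, by -0.10.

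Among 16 mitochondrial aminoacyl-tRNA synthetases 10 were higher and 4 lower (median 0.04). Cars2, which charges cysteine tRNA, read 5.48, 5.47 and 5.47 in LRRK2-GS and 5.42 and 5.41 in LRRK2-WT. The arrays of each genotype agreed closely and the genotypes did not overlap, yet the difference was only 0.06 (limma adjusted p = 0.826). Fars2, the phenylalanine enzyme, lay on the other side with 5.76, 5.89 and 6.0 in LRRK2-GS and 6.20 and 6.07 in LRRK2-WT, a difference of -0.25 (adjusted p = 0.826). Lars2 and Ears2 differed by 0.11 and 0.07.

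The 22 assembly and rRNA factors had a median of 0.00, with 11 higher and 7 lower. Ddx28, an RNA helicase, was the 1 gene of the list over 1.5-fold at 6.50, 6.45 and 4.27 in LRRK2-GS and 4.79 and 5.48 in LRRK2-WT. Its LRRK2-GS arrays lay on both sides of the LRRK2-WT arrays, and the 95% CI of its difference of 0.60 was -2.0 to 3.21. Rbfa, a small-subunit assembly factor, differed by -0.20, Ngrn by 0.24, Mterf3 by -0.09 and Mrm2 by 0.06 (limma adjusted p = 0.826 for each).

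Of 14 regulators of mitochondrial transcription 5 were higher and 9 lower (median -0.02). Ppargc1a, the coactivator PGC-1α, read 3.88, 5.27 and 5.33 in LRRK2-GS and 5.64 and 5.98 in LRRK2-WT. The first LRRK2-GS array lay far below the others and the groups did not overlap, with a difference of -0.99 (95% CI -2.63 to 0.66, limma adjusted p = 0.826). Its relatives Pprc1 and Ppargc1b differed by 0.21 and -0.26, and Nrf1, the factor whose core is shown above, by -0.02.

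The cytosolic ribosomal proteins were the nearest comparison by function. Their 64 genes had a median difference of 0.04, with 37 higher, 26 lower and 1 equal, and 2 passed an unadjusted p of 0.05, Rplp2 and Rps25. Rplp2, a stalk protein, lay under background on every array, at 2.96 ± 0.22 in LRRK2-GS (SD, n = 3) and 2.39 ± 0.00 in LRRK2-WT (SD, n = 2). Rps25 read 7.25, 7.45 and 7.33 in LRRK2-GS and 7.13 and 6.94 in LRRK2-WT, a difference of 0.31 (95% CI 0.03 to 0.58, limma adjusted p = 0.826). Rpl41 differed by 0.20, and Rps16 lay under background on every array. All LRRK2-GS values exceeded both LRRK2-WT values in 8 of the 64 genes, beside 2 of the 71 mitochondrial ones and 3.76% of all tested probe sets. Of the 8, Rps15, Rps16 and Rplp2 lay under background on every array. All LRRK2-GS values lay under both LRRK2-WT values in 2 of the 64, beside 1 of the 71 and 3.74% of all tested probe sets. The median size of the difference was 0.06 in the mitochondrial and 0.10 in the cytosolic list, and the median range within a genotype was 0.17 in the mitochondrial and 0.32 in the cytosolic list. A value stood on at least 2 arrays in 80.3% of the mitochondrial and 35.9% of the cytosolic genes. These differences between the lists were not tested.

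Subunits of the respiratory chain and the ATP synthase, the complexes that receive the products of the mitochondrial ribosome, were listed by symbol. This list also took in the pseudogenes Atp5c1-ps and Uqcrh-ps1, which lay under background on every array. Its 80 genes had a median difference of -0.02, with 36 higher and 43 lower, and 0 passed an unadjusted p of 0.05. Of the 4 with the smallest p, Ndufa11 differed by 0.10 (limma adjusted p = 0.826), and Cox6b2, Atp5g1 and Cox7c had means under background in both genotypes.

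**Figure D5:**
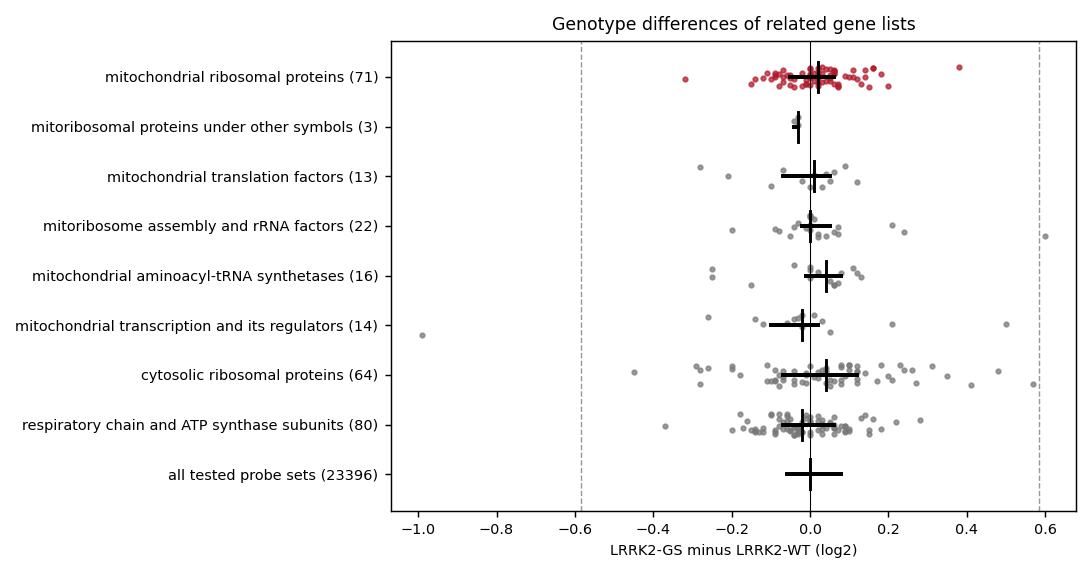
Difference between LRRK2-GS and LRRK2-WT (log2) of each gene in the mitochondrial ribosomal protein list and in 7 related lists, with the number of genes in brackets, a vertical line at the median, a thick bar over the quartiles and dashed lines at 1.5-fold; for all 23396 tested probe sets only the median and quartiles are drawn. The mitochondrial ribosomal proteins centre on 0.02 and lie within 0.38 of 0, and the cytosolic ribosomal proteins centre on 0.04.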

How the data were processed

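The values are log2 expression values of 33640 probe sets, deposited by the authors as a single table of 5 Affymetrix Mouse 2.0 ST arrays. The arrays were exported with Affymetrix Command Console software, and how they were normalized was not given in the sources used here. Values were used as deposited. A probe set was tested if it named a single gene, which left out 1812 that named several and 8432 that named no gene, and 23203 of the 23396 tested were found in GRCm38.p6. LRRK2-GS was compared with LRRK2-WT in R 4.3.3 with limma 3.58.1 (lmFit and eBayes, two-sided, no replicate block), and p-values were adjusted by Benjamini-Hochberg across all of them. Calls needed an adjusted p up to 0.05 and more than 1.5-fold. With 3 and 2 arrays, the precision is limited by their number, and limma's prior degrees of freedom were 0.595. Steps were tested on simulated data, which for the limma fit had normal spread and lacked the exact recurrences of the deposited values. The genes and lists were chosen with earlier results of these data known. Genes described singly are those whose genotypes do not overlap, the 8 highest and 8 lowest differences and any at an unadjusted p under 0.05. So are the 4 with the widest range within a genotype and up to 4 per related list with the smallest p. Ddx28 was added after its values were seen. Other genes of the stalk and tunnel, and Mrps18c, are given by their differences alone. Alternatives were other priors, weights and normalizations, a filter on dim probe sets, a replicate block, other probe set choices, the methods' t-test and each array left out.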

Additional observations from a re-analysis of the deposited data

How the results depend on the processing

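With at least 2 arrays per genotype, every alternative gave 0 calls among the 71 genes and 0 among all tested probe sets. The 0 is thus not particular to these genes. No gene exceeded 1.5-fold under any alternative. After quantile normalization the median difference was 0.04 over all genes, 0.03 over Mrpl genes and 0.08 over Mrps genes, with 45 genes higher in LRRK2-GS. The genotypes did not overlap in 27 genes after quantile normalization (38%, beside 28.8% of all tested probe sets) and in 21 after cyclic loess (29.6%, beside 26.2%). After quantile normalization LRRK2-GS lay above in 25 genes (35.2%, beside 8.87%) and below in 2 (2.82%, beside 20%). After cyclic loess LRRK2-GS lay above in 16 genes (22.5%, beside 6.33%) and below in 5 (7.04%, beside 19.9%). In 25 of the 27 and in 19 of the 21 the deposited values were tied between at least 2 arrays. With the replicate number as a block, 2 genes had an unadjusted limma p under 0.05 (6% of all tested probe sets did). The median difference was then 0.01, that of the Mrps genes 0.02, and the difference of Mrps14 turned to 0.01. No LRRK2-WT array shares the number of the third LRRK2-GS array, so the block takes that array up. These differences equal those without it. Same-numbered arrays correlated at -0.13 and 0.09 in their deviations from the genotype means. With 2 LRRK2-WT arrays these deviations mirror each other, so the values cannot show whether the numbers pair the samples. Leaving out each array in turn gave 0 to 7 genes with an unadjusted p under 0.05, a median difference of 0.00 to 0.02, an Mrps median of 0.01 to 0.07, 33 to 42 genes higher in LRRK2-GS and 3 to 24 genes without overlap. The 24 without the second LRRK2-WT array are 33.8%, beside 32.4% of all tested probe sets, and the 23 without the first are 32.4%, beside 31.8%. Without the second LRRK2-WT array, 7 genes (9.86%, beside 10.3% of all tested probe sets) had such a p and Mrps22, Mrps26 and Mrps30 had an adjusted p under 0.05 (lowest 0.015), at differences of at most 0.23. In these 3 genes the LRRK2-GS arrays are equal. The lone LRRK2-WT array is assumed to vary like them. Leaving out an array turned the sign of Mrpl14 (-0.21 to 0.10), Mrpl23 (-0.22 to 0.03), Mrpl32 (-0.16 to 0.48), Mrps2 (-0.20 to 0.01) and Mrps14 (-0.32 to 0.10). This also moved 16 of the 17 named genes by over 1.5 times, Mrps28 excepted. Without the second LRRK2-WT array Mrps35 was at 0.03, Mrps16 at 0.06, Mrpl3 and Mrpl50 at 0.04, Mrpl42 at -0.03, Mrps18a at -0.02 and Mrpl49 at -0.16. Mrpl4 was at 0.06 without the first LRRK2-WT array, Mrpl46 at -0.01 and Mrps18b at 0.24 without the first LRRK2-GS array, and Mrpl54 at -0.04 without the second. Of 237 comparisons of the named genes 228 kept their direction, and none was called. The other prior, the filter on dim probe sets, the fit over all 33640 probe sets and the methods' t-test leave the difference itself unchanged. Those alternatives could not turn a direction, and the block adds no new values. The 228 therefore do not measure how stable the directions are. With the other probe set of Mrps18b, tried after seeing the data, its difference was 0.05 and 2 genes were without overlap. Averaging both gave 0.21. The cause of these changes was not tested.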
